A study of Drosophila melanogaster with 2 samples.

Results

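Summits of the GFP-tagged fly protein CG6683 were located at 42 cell cycle and replication genes, of 13945 protein-coding genes on the 6 main chromosome arms of *Drosophila melanogaster*. The members were taken by name from a written list: 5 cyclin genes, 3 genes of cyclin-dependent kinases, 3 of Cdc25 phosphatases and a Cdk inhibitor, 5 of the E2F and retinoblastoma family, 2 of activators of the anaphase-promoting complex (APC/C), 3 of mitotic kinases, 5 of the MCM helicase, 5 of origin licensing, 1 of the replication clamp, 3 of the spindle checkpoint, 3 of condensin and 4 of checkpoint kinases. All 42 were found in the annotation. The material was whole embryos of 6 to 24 hours, both sexes pooled, from a transgenic line that stably expresses CG6683 with GFP fused at its C-terminus. Chromatin bound by an anti-GFP antibody was sequenced (ChIP-seq) in 2 biological replicates, numbered 2 and 3, of this single group. The age range is that of the source name, because the separate age label could not be read as an age. Every summit below was therefore read from chromatin of the tagged protein in a mixture of all embryonic tissues. In this mixture strong binding in a few cells and weak binding in many cannot be told apart, and lower candidates can be background.

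Cell division is driven by cyclin-dependent kinases, which act only when joined to a cyclin. E2F proteins, with their partner Dp, switch on genes of DNA synthesis and are held back by the retinoblastoma proteins. Origins are licensed in G1 by the origin recognition complex, Cdt1 and the MCM helicase, and geminin blocks a second licensing. In the fly embryo many epidermal cells stop dividing in the middle of embryogenesis, while neural precursors keep dividing and several tissues replicate their DNA without mitosis. Promoters of many fly replication genes carry the DNA replication-related element, the binding site of the factor Dref, and E2F sites.

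The sequences below are those around the summits that carry the results at *Mcm2*, *mei-41*, *grp*, *CycE* and *E2f1*, where the tagged protein was found at or in the gene, each 201 bp long and centred on the summit. *Mcm2* encodes a subunit of the replicative helicase and *mei-41* and *grp* the fly ATR and Chk1 checkpoint kinases. *CycE* encodes the cyclin of S-phase entry and *E2f1* the activating E2F. They are written 5′ to 3′ on the strand of the gene from the Release 6 genome of RefSeq, in dm6 coordinates. They lie at chr3R:8264724-8264924 on the plus strand (*Mcm2*), chrX:16391415-16391615 on the plus strand (*mei-41*), chr2L:16684955-16685155 and chr2L:16684249-16684449 on the plus strand (*grp*), chr2L:15747027-15747227 on the minus strand (*CycE*) and chr3R:21627841-21628041 on the minus strand (*E2f1*). Capitals mark any of the words searched for, which are listed with the motif results, on either strand. The windows of *mei-41* and of the *grp* start hold none of these words, so they have no capitals.
Mcm2: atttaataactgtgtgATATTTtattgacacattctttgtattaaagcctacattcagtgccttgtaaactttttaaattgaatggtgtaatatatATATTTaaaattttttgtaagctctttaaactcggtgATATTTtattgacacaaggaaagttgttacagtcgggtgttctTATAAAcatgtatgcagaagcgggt
mei-41: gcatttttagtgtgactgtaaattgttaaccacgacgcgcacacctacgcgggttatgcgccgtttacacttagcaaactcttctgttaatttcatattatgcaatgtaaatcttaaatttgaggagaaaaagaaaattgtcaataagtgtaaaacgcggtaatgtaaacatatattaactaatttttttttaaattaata
grp, at the start: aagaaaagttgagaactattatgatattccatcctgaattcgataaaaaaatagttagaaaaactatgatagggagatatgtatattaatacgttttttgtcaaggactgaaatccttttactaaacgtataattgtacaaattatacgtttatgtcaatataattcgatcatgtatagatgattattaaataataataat
grp, further upstream: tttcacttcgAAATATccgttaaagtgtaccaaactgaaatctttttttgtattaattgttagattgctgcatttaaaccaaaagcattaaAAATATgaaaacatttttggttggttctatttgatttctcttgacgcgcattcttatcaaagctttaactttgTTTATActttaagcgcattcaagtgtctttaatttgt
CycE: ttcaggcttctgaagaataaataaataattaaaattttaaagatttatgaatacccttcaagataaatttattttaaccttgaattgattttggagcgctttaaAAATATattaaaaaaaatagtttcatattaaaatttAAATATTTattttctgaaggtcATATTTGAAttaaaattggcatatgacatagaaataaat
E2f1, strongest intron summit: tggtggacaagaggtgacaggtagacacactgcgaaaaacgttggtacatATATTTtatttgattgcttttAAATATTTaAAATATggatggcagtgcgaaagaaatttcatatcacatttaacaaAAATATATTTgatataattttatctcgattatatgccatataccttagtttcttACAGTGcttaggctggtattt
The 6 printed windows have GC contents of 18.9% to 30.8%. The *CycE* window has a GC content of 18.9%, the *grp* start window 23.4% and the *mei-41* window 30.8%. The median over the 2964 windows of the same size at all optimal summits is 34.6%, with quartiles of 29.9% and 40.3%. Other summits of these genes go the other way, at 46.3% for the leading *Dp* summit, 45.8% and 50.7% for those of *dup* and 43.8% for *Cdk4*.

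The deposited dm6 lists give each peak a signal value that is the authors' own, used here only to describe and rank peaks within a list. The optimal list, kept by the authors after thresholding on reproducibility, has 2964 peaks on the main arms with signals from 171 to 3257. Which lists that step compared is not given in the sources used here. Of the optimal peaks, 2886 (97.4%) have a candidate in both replicate lists. The optimal peaks are the upper 2964 of the pooled list of candidates. The pooled list has 29984 peaks on the main arms and reaches down to 28.5, so a lower candidate can be background. Each replicate list was read whole and also at its 2964 strongest peaks, down to a signal of 83.4 in the list labelled replicate 2 and 105 in that labelled replicate 3. The replicate numbers themselves go against each other in the deposited files. On arm 2L, 4793 of 5423 intervals (88.4%) of the dm3 list labelled replicate 2 have the same coordinates as in the dm6 list labelled replicate 3, against 0 in the dm6 list labelled replicate 2. The dm3 list labelled replicate 3 shares 5020 of 5197 intervals (96.6%) with the dm6 list labelled replicate 2. The numbers below are those of the dm6 lists, and which library is which could not be settled. No read depth is given, so it is unknown.

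At transcript starts the cell cycle genes stood close to the genome. An optimal summit lay within 500 bp of a start at 6 of the 42 genes (14.3%), against 13.3% of all protein-coding genes. These were *Dp*, *Mcm2*, *dup*, *SMC2*, *mei-41* and *grp*. The share with any pooled candidate at a start was higher than in the genome, at 31 of 42 genes (73.8%) against 50.5%. Of those 31 genes 19.4% had an optimal summit there, against 26.4% of all genes with a candidate. The signal of the strongest pooled candidate at a start had a median of 101 over the 31 genes (quartiles 60.6 and 151, range 38.2 to 589), beside 103 over the 7038 such genes of the genome (quartiles 64.4 and 176). No test was made on these counts, since the genes were chosen with earlier results of these data known.

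**Figure D1:**
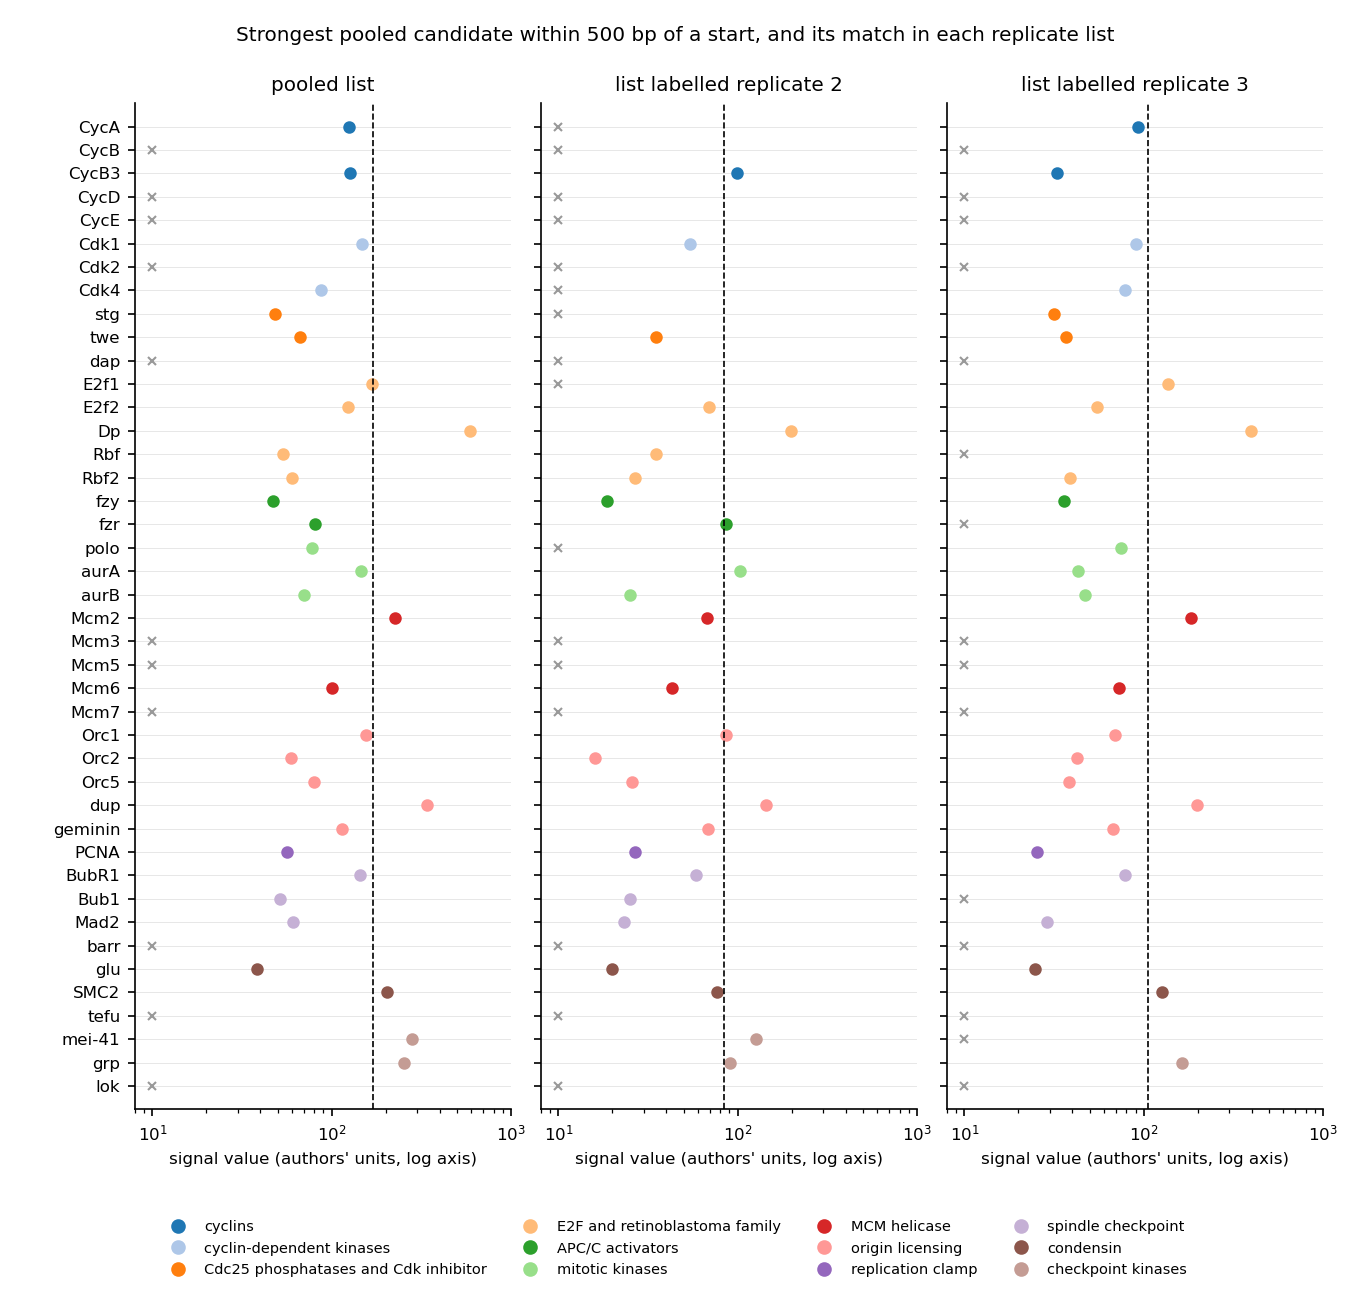
Signal of the strongest pooled candidate within 500 bp of a start of each of the 42 genes, and of its matching candidate in each replicate list, in the authors' units on a log axis; colours are the 12 roles, a cross at the left marks no pooled candidate or no match to it, and the dashed line is the lowest signal of the optimal list (171) or of the 2964 strongest peaks of a replicate list (83.4 and 105). In the pooled list 6 genes lie to the right of the line, led by Dp at 589, and 11 genes have no pooled candidate within 500 bp of a start.

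Replicate by replicate, the set of genes differed more than its size. Among the 2964 strongest peaks labelled replicate 2, a summit at a start was present at 8 of the 42 genes (19.0%, against 14.1% of all genes): *CycB3*, *Dp*, *fzr*, *aurA*, *Orc1*, *dup*, *mei-41* and *grp*. Among those labelled replicate 3 it was present at 6 genes (14.3%, against 12.8%): *E2f1*, *Dp*, *Mcm2*, *dup*, *SMC2* and *grp*. *CycB*, *Cdk2*, *Mcm5* and *Mcm7* were the 4 genes with no candidate at a start in any list, and 7 genes with none in the pooled list had a weaker one in a replicate list. Only *Dp*, *dup* and *grp* were in both sets of strongest peaks, 7.14% of the members against 9.09% of all genes. Of the 31 strongest pooled candidates at starts, 22 (71.0%) had a matching summit within 200 bp in both whole lists, beside 71.9% over all genes. *Bub1*, *Rbf*, *fzr* and *mei-41* had a match labelled replicate 2 only, and *Cdk4*, *CycA*, *E2f1*, *polo* and *stg* one labelled replicate 3 only. A gene without a match by this rule can still have an overlapping peak. The peaks of *Cdk4*, *E2f1* and *polo* overlapped candidates labelled replicate 2, of 25.3, 44.5 and 55.9.

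**Figure D2:**
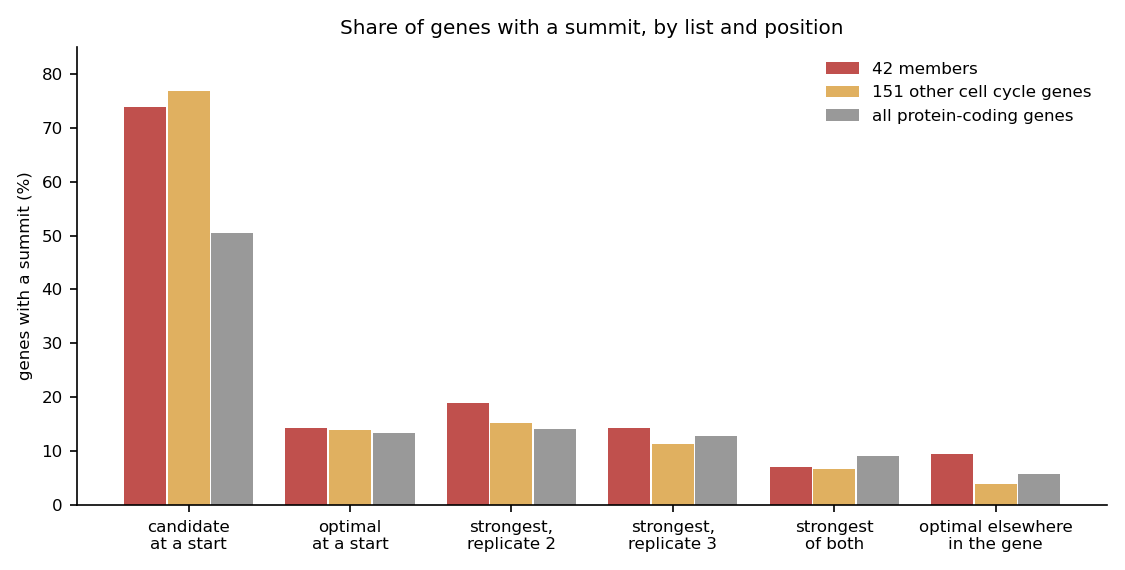
Share of genes (%) with a summit, by list and position, for the 42 genes, 151 other cell cycle genes and all 13945 protein-coding genes. Both cell cycle sets exceed the genome for any candidate at a start (73.8% and 76.8% against 50.5%), and the bars for an optimal summit at a start are near each other (14.3%, 13.9% and 13.3%).

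Among the E2F and retinoblastoma family, *Dp*, which encodes the partner that E2F proteins need to bind DNA, had the highest signal of all 42 genes. Its peak on arm 2R from 13223179 to 13223535 had its summit in an intron, 269 bp upstream of an internal start, with a signal of 589 in the pooled list (rank 312), 198 labelled replicate 2 (rank 502) and 399 labelled replicate 3 (rank 250). A second peak, from 13223860 to 13224176, lay 413 bp downstream of that start, with signals of 364, 180 and 193 in the same order. Both peaks were thus among the strongest of each list, and they flank the internal start. At *E2f1* the strongest candidate at a start had a pooled signal of 168 at 427 bp upstream, just under the lowest optimal signal of 171. It had no summit within 200 bp labelled replicate 2, where its peak overlapped a candidate of 44.5, and a signal of 137 labelled replicate 3. *E2f2*, the repressing E2F, had a candidate of 124 in the pooled list, 68.9 labelled replicate 2 and 54.9 labelled replicate 3. This candidate lay nearer to a start of *Mpp6* (64 bp against 120 bp). The retinoblastoma genes *Rbf* and *Rbf2* had pooled candidates of 53.2 and 60.1. All 5 genes of the family had a candidate at a start, and *Dp* was the only one of them in the optimal list there.

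*E2f1* had the most summits inside the gene. Its span of 40568 bp held 29 pooled candidates more than 500 bp from every start, and 3 of these were optimal, all in introns. The strongest, on 3R from 21627845 to 21628035, lay 4752 bp downstream of the nearest start and had signals of 273 in the pooled list, 101 labelled replicate 2 and 168 labelled replicate 3. The peak from 21656767 to 21657210 had signals of 196, 77.0 and 126, and the peak from 21629648 to 21630091 had 187, 89.9 and 109. All 3 were among the strongest labelled replicate 3, and the peak from 21656767 to 21657210 was not among the strongest labelled replicate 2.

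The cyclin genes had no optimal summit within 500 bp of a start. *CycE*, however, had 1 inside the gene that lay just outside this window. Its peak on 2L from 15746914 to 15747149, in an intron 517 bp upstream of the nearest start, had a signal of 473 in the pooled list (rank 489), 151 labelled replicate 2 (rank 867) and 341 labelled replicate 3 (rank 339). After the leading peak of *Dp*, this was the second strongest peak at any of the 42 genes. The mitotic cyclin genes *CycA* and *CycB3* had pooled candidates of 125 and 126 at a start. For *CycA* the matching signal was 93.3 labelled replicate 3, with none labelled replicate 2, and for *CycB3* it was 99.1 labelled replicate 2 and 32.9 labelled replicate 3. *CycB*, another mitotic cyclin gene, had no candidate at a start or in the gene in any list. *CycD*, the partner gene of *Cdk4*, had none at a start in the pooled list and 32.5 labelled replicate 2. At the starts of *CycE* itself the list labelled replicate 2 alone held a candidate, of 33.7.

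Of the kinase genes, *Cdk4* had an optimal summit in an intron on arm 2R, in the peak from 16584002 to 16584162. It lay 3262 bp downstream of the nearest *Cdk4* start and 2034 bp upstream of the start of the ribosomal protein gene *RpLP2*. Its signal was 298 in the pooled list, 160 labelled replicate 2 and 140 labelled replicate 3, among the strongest of each. At the starts of *Cdk4* the pooled signal was 87.1. *Cdk1*, the mitotic kinase gene, had a lower candidate of 147 at 191 bp upstream, with 54.5 labelled replicate 2 and 90.9 labelled replicate 3. *Cdk2*, the kinase gene of S-phase entry, had no candidate in any of the lists. The phosphatase genes *stg* and *twe*, whose products activate Cdk1 in mitosis and in meiosis, had candidates of 48.1 and 66.3. The *stg* candidate lay nearer to a start of *CG45544* (208 bp against 477 bp). The Cdk inhibitor gene *dap*, which halts embryonic epidermal divisions, had none in the pooled list. In the replicate lists it had weak candidates at a start, of 22.5 labelled replicate 2 at 310 bp upstream and 59.5 labelled replicate 3 at 223 bp upstream.

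Among the genes of mitotic exit and the mitotic kinases no optimal summit was found. The APC/C activator genes *fzy* and *fzr*, the fly Cdc20 and Cdh1, had pooled signals of 47.2 and 80.5. The *fzy* candidate lay nearer to a start of *cni* (2 bp against 228 bp). For *fzr* the match was 85.6 labelled replicate 2, with none labelled replicate 3. *aurA*, the centrosomal Aurora kinase gene, had 145 in the pooled list, 103 labelled replicate 2 and 43.1 labelled replicate 3. It was thus among the strongest of one list and below them in the other. *polo* and *aurB* had pooled signals of 77.5 and 70.3.

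**Figure D3:**
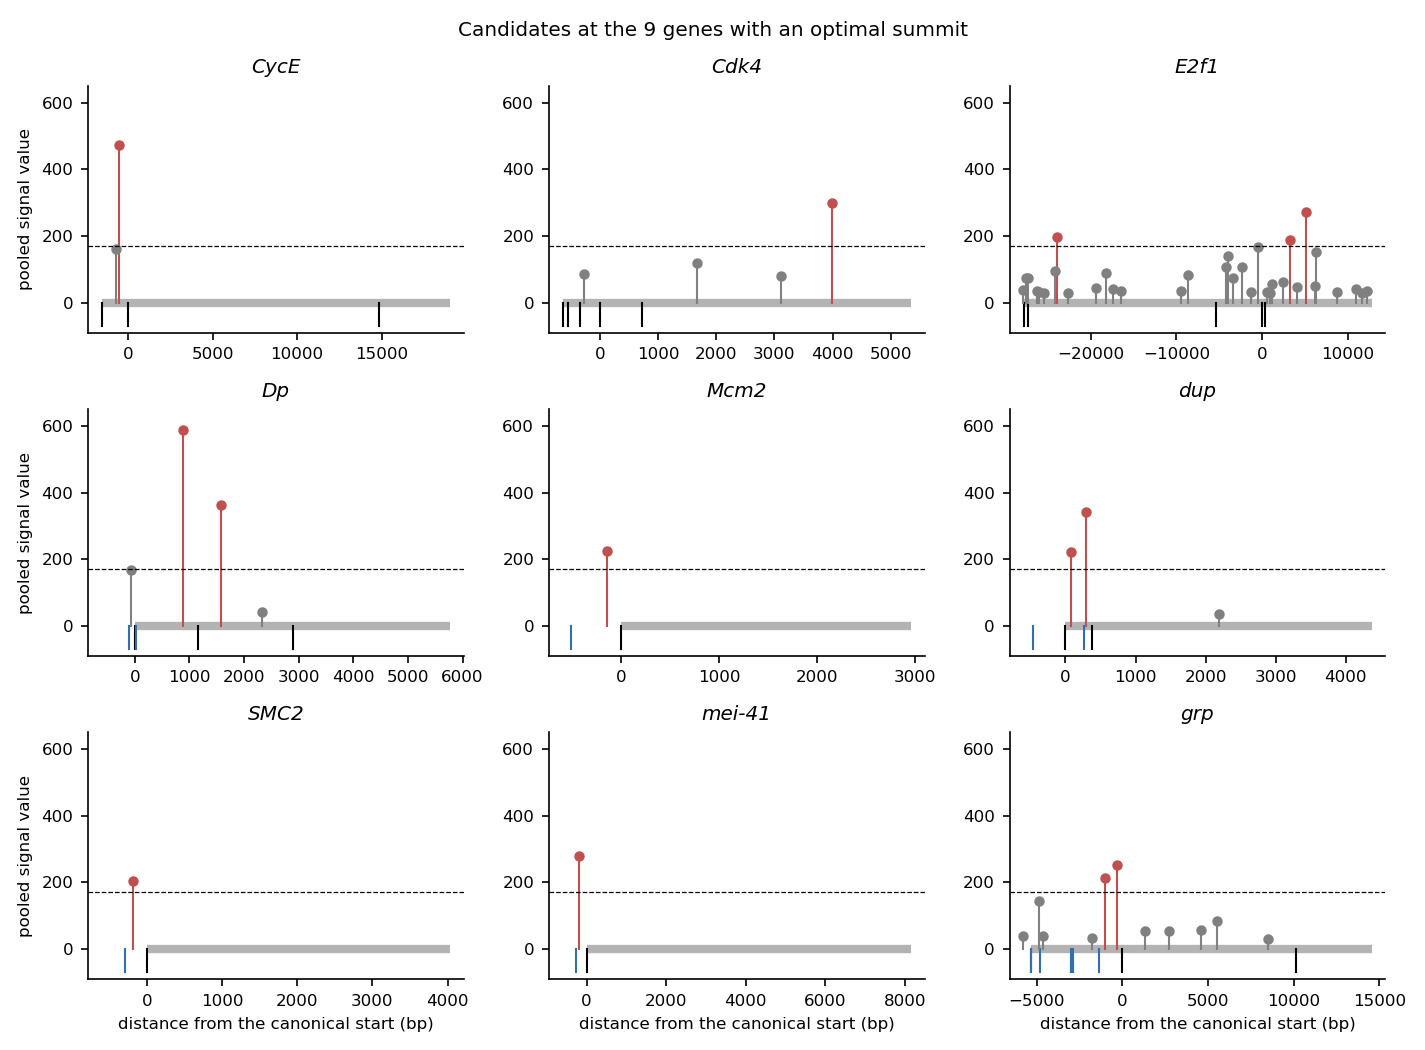
Pooled candidates at the 9 genes with an optimal summit, as signal (authors' units) against distance from the canonical start (bp); red points are optimal, grey points lower candidates, black ticks the gene's own starts, blue ticks starts of other genes, the grey bar the gene span, and the dashed line the lowest optimal signal. The optimal summits at Mcm2, SMC2 and mei-41 lie upstream of the gene, and those at CycE, Cdk4, E2f1, Dp, dup and grp lie inside it.

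The MCM genes split. *Mcm2* had an optimal peak on 3R from 8264602 to 8265045, with its summit 146 bp upstream of the start in the window printed above. The signal was 226 in the pooled list (rank 1885), 67.4 labelled replicate 2 (rank 4327) and 183 labelled replicate 3 (rank 1154), so the peak was among the strongest of the latter list and not of the former. The peak is shared with *RPA1*, which encodes the large subunit of the single-strand binding protein and is transcribed away from *Mcm2* from a start 519 bp away. *Mcm6* had a lower candidate of 101, nearer to a start of *CG3198*. *Mcm5* and *Mcm7* had no candidate at a start in any list, and *Mcm3* had a weak one of 20.9 labelled replicate 2 only. The 5 genes, whose products work in the same complex, thus ranged from an optimal summit to no candidate in any list.

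All 5 origin licensing genes had a candidate at a start, and *dup*, the fly Cdt1 gene, was optimal. Its peaks on arm 2R, from 15380599 to 15380823 and from 15380684 to 15381127, overlap each other. The first had its summit 85 bp upstream of an internal *dup* start and 25 bp upstream of a start of the splicing kinase gene *SRPK*, with signals of 342, 143 and 198 in the pooled list, labelled replicate 2 and labelled replicate 3. The second, 82 bp downstream of a *dup* start, had 221 in the pooled list and 115 labelled replicate 3, and it matched the same candidate labelled replicate 2 as the first. *Orc1*, the gene of the largest origin recognition subunit, came close with 155 in the pooled list, 86.1 labelled replicate 2 and 68.9 labelled replicate 3. *geminin* had 114, 68.6 and 67.2. *Orc2* and *Orc5*, which encode other subunits, had pooled signals of 59.7 and 79.8, and *PCNA*, the replication clamp gene, had 56.5.

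Among condensin genes, *SMC2* had an optimal peak on arm 2R from 14852622 to 14853065 with signals of 203, 76.8 and 126 in the pooled list, labelled replicate 2 and labelled replicate 3. Its summit lay 191 bp upstream of *SMC2* and 97 bp upstream of the DNA repair gene *Ercc1*. The partner gene *glu*, the fly SMC4, had the lowest start candidate of all members, at 38.2. *barr*, the kleisin gene of condensin, had none in the pooled list. It lies head to head with *lok*, the Chk2 gene, with 52 bp between their starts, and both starts had the same candidate of 53.4 (rank 8641) in the list labelled replicate 3 only. The spindle checkpoint genes *BubR1*, *Bub1* and *Mad2* had pooled signals of 144, 51.4 and 61.2, all below the optimal list.

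Of the checkpoint kinase genes, *mei-41* and *grp* were optimal at a start, while *tefu*, the fly ATM gene, and *lok* had no pooled candidate there. For *tefu* the list labelled replicate 3 held a candidate of 48.3 at 469 bp upstream. The *mei-41* peak on X from 16391404 to 16391634 had a signal of 280 in the pooled list and 126 labelled replicate 2 (rank 1321). It had no candidate labelled replicate 3, as was true of 15 of the 2964 optimal peaks (0.506%). The summit lay 183 bp upstream of *mei-41* and 77 bp upstream of *TH1*, a gene of the negative elongation factor. At *grp* the start peak on 2L from 16684826 to 16685220 had signals of 253, 90.6 and 164. Its summit lay in an intron, 335 bp upstream of an internal start. A further peak from 16684276 to 16684458 had 214, 81.2 and 139. The start peak was among the strongest of both replicate lists, and the further one only of that labelled replicate 3. The further summit lay 1041 bp upstream of the nearest *grp* start and 341 bp upstream of a start of *CG31807*, inside an intron of *grp*.

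**Figure D4:**
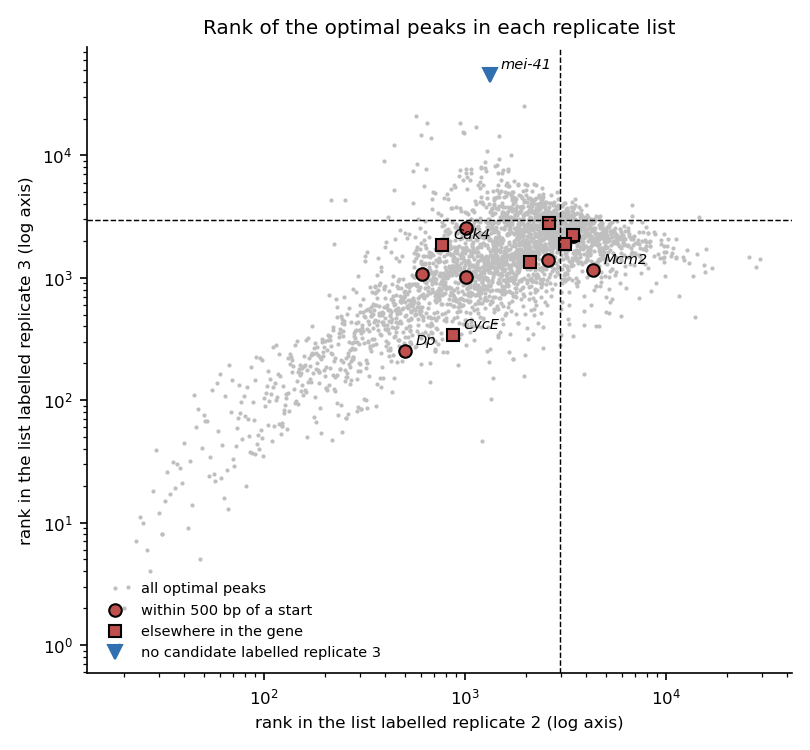
Rank of every optimal peak in the list labelled replicate 2 (x) and labelled replicate 3 (y), both on log axes, where rank 1 is strongest; grey points are all optimal peaks, red circles and squares those at starts of and elsewhere in the 42 genes, and dashed lines mark rank 2964. Dp and CycE are the leading points, and mei-41, with no replicate 3 candidate, is a triangle set above the ranked points.

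The 14 optimal peaks at the 42 genes, 8 at starts and 6 elsewhere in the gene, had a candidate labelled replicate 2 in 14 cases and labelled replicate 3 in 13. They were among the strongest labelled replicate 2 in 10 cases and labelled replicate 3 in 13, and in both in 9. The same counts over all optimal peaks are not given here, so these are a description only. The cases are not all separate, since the 2 *dup* peaks matched the same candidate labelled replicate 2. Rank was higher labelled replicate 3 for 8 of the 14 peaks and labelled replicate 2 for 5. Over all optimal peaks with both values 56.8% ranked higher labelled replicate 3.

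Elsewhere in the gene, optimal summits were present at 4 of the 42 genes (9.52%, against 5.72% of all genes): *CycE*, *Cdk4*, *E2f1* and *grp*. Any candidate there was found at 18 genes (42.9%, against 30.1%). Gene length moves with these counts. The median span of the 42 genes was 3084 bp, against 2166 bp over all genes, and 3 of the 5 members with a span of at least 10000 bp had such a summit, where 28.5% of all genes of that length did. Of the 37 shorter members only *Cdk4* had one, and the share over all shorter genes is not given here. The length limit was chosen after the values were seen. In all, 9 members had an optimal summit at a start or in the gene, *grp* had both, and 33 had neither. These last counts have no share over all genes beside them.

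The strongest optimal start summits at the 6 genes all lay upstream of the nearest own start, at 85 to 335 bp, with a median offset of -187 bp. At *Dp*, *dup* and *grp* this summit lay inside the gene. The second optimal peaks of *Dp* and *dup* lay downstream of a start, at 413 bp and 82 bp. Over all genes with an optimal start summit 86.3% lay upstream, with a median of -145 bp. The median signal at the 6 genes was 267, against 281 over all such genes (quartiles 209 and 426). Of the 6, 5 lie head to head with another gene whose start is within 1000 bp: *Dp* with *Fsn* (95 bp), *Mcm2* with *RPA1* (519 bp), *dup* with *SRPK* (110 bp), *SMC2* with *Ercc1* (288 bp) and *mei-41* with *TH1* (260 bp). Such a partner was present at 24 of the 42 genes (57.1%), at 36.2% of all genes and at 63.1% of genes with an optimal start summit. This distance too was chosen after the values were seen. The count is by gene and does not place the summit between the paired starts. At *Dp* the optimal summits flanked an internal start, and the candidate nearest *Fsn*, with a pooled signal of 168, was below the optimal list. At *dup*, *SMC2* and *mei-41* the strongest summit lay nearer to the start of the partner, so the peak cannot be assigned to either gene by position.

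Promoter words, which the choice of genes did not use, were counted next. Words were searched on both strands in the 300 bp from 250 bp before to 50 bp after each canonical start. The DNA replication-related element, TATCGATA, was in 10 of the 42 promoters (23.8%), against 8.94% of 13944 promoters: those of *Bub1*, *BubR1*, *Cdk2*, *CycA*, *Mad2*, *Orc2*, *Orc5*, *PCNA*, *Rbf2* and *mei-41*. E2F words (TTTCCCGC, TTTCGCGC, TTTGCCGC or TTTGGCGC) were in 11 (26.2%, against 6.48%): those of *CycE*, *Mcm2*, *Mcm3*, *Mcm5*, *Mcm6*, *Orc1*, *Orc5*, *SMC2*, *grp*, *stg* and *tefu*. The CHR word TTTGAA (42.9% against 40.1%) and the TATA word TATAAA (42.9% against 45.3%) were near the background, and the GAGA word GAGAG was in 23.8% against 30.2%. The E-box CACGTG was in 0 promoters, against 4.26%. The A and T word AAATAT was in 64.3% against 53%, and the comparison word ACAGTG in 23.8% against 13.9%, also above the background. Of the 42 promoters 22 held neither the element nor an E2F word.

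**Figure D5:**
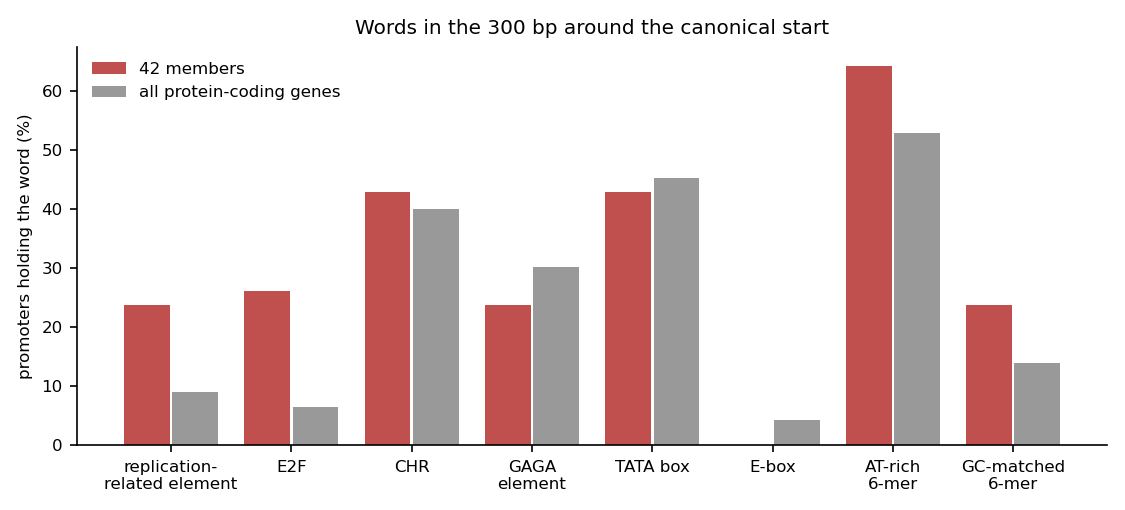
Share of promoters (%) that hold each word on either strand, for the 42 genes and for all protein-coding genes. The DNA replication-related element (23.8% against 8.94%) and the E2F words (26.2% against 6.48%) stand furthest above the background as a ratio.

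The promoters of *Orc5*, *Cdk2* and *Mcm5* show these words where the tagged protein was weak or not found, and were chosen for that after the values were seen. *Orc5* is the only member with both kinds of word. They are written 5′ to 3′ from the Release 6 genome of RefSeq, all on the plus strand, at chr2L:13829587-13829886 (*Orc5*), chr3R:20735373-20735672 (*Cdk2*) and chr3R:10788274-10788573 (*Mcm5*). Capitals mark the DNA replication-related element and E2F words.
Orc5: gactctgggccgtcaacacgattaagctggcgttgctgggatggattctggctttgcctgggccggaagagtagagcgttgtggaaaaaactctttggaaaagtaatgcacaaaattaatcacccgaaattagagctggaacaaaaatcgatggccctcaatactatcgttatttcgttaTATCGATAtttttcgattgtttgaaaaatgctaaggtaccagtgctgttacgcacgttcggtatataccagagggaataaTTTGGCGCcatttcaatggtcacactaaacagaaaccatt
Cdk2: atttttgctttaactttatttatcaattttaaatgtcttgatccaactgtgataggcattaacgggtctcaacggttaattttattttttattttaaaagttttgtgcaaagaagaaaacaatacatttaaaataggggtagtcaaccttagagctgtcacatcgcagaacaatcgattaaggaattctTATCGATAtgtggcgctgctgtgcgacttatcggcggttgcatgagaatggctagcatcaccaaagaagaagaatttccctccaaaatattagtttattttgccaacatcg
Mcm5: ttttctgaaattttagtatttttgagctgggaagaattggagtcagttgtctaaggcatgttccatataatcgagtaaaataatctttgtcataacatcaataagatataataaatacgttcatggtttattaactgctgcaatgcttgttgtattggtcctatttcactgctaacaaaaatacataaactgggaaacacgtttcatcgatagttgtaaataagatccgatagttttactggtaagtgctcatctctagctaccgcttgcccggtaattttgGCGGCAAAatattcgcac
In *Orc5* the first base of the element is 70 bp upstream of the start and that of the E2F word 10 bp downstream. *Cdk2* has the element 61 bp upstream, and *Mcm5* has an E2F word 32 bp downstream on the other strand.

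The counts of optimal summits at genes with these words were small. Of the 10 genes with the element, *mei-41* had an optimal start summit, 8 had a lower candidate only and *Cdk2* had no pooled candidate. That is 1 of 10, beside 19.5% of all genes whose promoter holds the element. Of the 11 genes with an E2F word, *Mcm2*, *SMC2* and *grp* had an optimal start summit, 4 had a lower candidate there and 4 had no pooled candidate there. That is 27.3% optimal at a start, beside 15.9% among all genes with such a word. Among the 4 without a start candidate is *CycE*, whose optimal summit lay 517 bp from a start. At *mei-41*, *Mcm2*, *SMC2* and *grp* the word lay outside the 100 bp around the summit. The distance was 164 bp at *mei-41*, 182 bp at *Mcm2*, 221 bp at *SMC2* and 232 bp at *grp*. Within 100 bp of the 14 summits the element was found 0 times, beside 3.00% of all optimal windows, and an E2F word once, at *dup* (7.14% against 3.34%). CHR was in 1 window (*CycE*; 29.9% of all windows), GAGA in 2 (23.5%), TATA in 4 (38.4%), the E-box in 0 (2.43%), AAATAT in 5 (55.8%) and ACAGTG in 2 (18.2%). With 14 windows these shares rest on few sites, and a word in a window does not show that a factor bound it. Median GC content of the promoters was 36.2% at the 6 genes optimal at a start and 35.0% at the 25 with a lower candidate there. It was 34.7% at the 11 with no pooled candidate at a start, with overlapping ranges.

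The wider cell cycle and replication genes gave a like picture. Of 151 other genes, written down by role, 21 had an optimal start summit (13.9%, beside 13.3% of all genes) and 116 a candidate (76.8%, beside 50.5%). The highest was *lin-52*, a subunit gene of the dREAM complex, with signals of 739 in the pooled list, 330 labelled replicate 2 and 415 labelled replicate 3, though 497 bp upstream of its start and nearer to *CG15771*. *Dref*, the gene of the factor that binds the replication-related element, had 483, 166 and 321 at 51 bp upstream, nearer still to *RpL13*. The cohesin gene *pds5* had 608 in the pooled list, the APC/C subunit gene *Cdc16* 500, the centrosome gene *cnn* 369 and the fork gene *Ctf4* 352. The *cnn* peak differed between the replicate lists, at rank 4443 labelled replicate 2 and rank 405 labelled replicate 3. The *pds5* summit lay nearer to *Mppe* (96 bp against 182 bp) and the *Ctf4* summit nearer to *CG8067* (106 bp against 207 bp). *Top1*, the topoisomerase gene, had 348, *RnrS*, which encodes the small subunit of ribonucleotide reductase, 346, the cytokinesis gene *tum* 335 and *p53* 317. The *tum* summit lay 10 bp from a start of *Uba3* and 253 bp from that of *tum*. By role, 4 of 11 centriole and centrosome genes and 5 of 39 genes of replication initiation and the fork had an optimal start summit. None of the 4 centriole and centrosome genes had this peak among the strongest of both replicate lists. Labelled replicate 2 it was 66.3 at *cnn*, 66.3 at *gammaTub23C* and 61.4 at *SAK*, and labelled replicate 3 it was 87 at *asl*. An optimal start summit was present at 0 of 16 kinetochore and checkpoint genes, of which 9 had a lower candidate, and at 1 to 3 genes in every other role. Some of these peaks are shared. That of *RPA1* is the *Mcm2* peak, and *SAK* and *Cdk12* have the same peak.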

How the data were processed

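ChIP-seq of GFP-tagged CG6683 was measured in 2 replicates of 1 group. The authors deposited peak lists on dm6 and dm3: 1 optimal list after IDR (irreproducible discovery rate) thresholding, 1 list of pooled candidates and 1 of candidates for each replicate, with 30000 peaks in every candidate list. Each peak has a signal value and a summit position, which the authors deposited without naming a normalization, so values were ranked within a list only. Which aligner and caller made them is not given in the sources used here. Read depth is unknown, so no interval or floor is given. Fragments were stated as 200 to 800 bp, per the labels. The dm3 lists were used only to compare replicate numbers, over intervals with identical coordinates.

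Starts and spans came from Ensembl release 115 (BDGP 6.54), and sequences from the RefSeq Release 6 genome. Coordinates are 1-based. A summit was at a start when within 500 bp of any transcript start of the gene, and elsewhere in the gene when inside the span and further than that from all of them. An offset is to the nearest own start, negative upstream. Replicate matches were summits within 200 bp. The symbol of 1 member differed from the annotation in case only. Of 153 other genes written by role, 151 were used: 1 was unmatched and 1 a repeat.

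The members, lists, words and alternatives were chosen with earlier results of these data known, so no p-value was computed and counts stand beside the same share over all protein-coding genes. The rule for named genes took members with an optimal summit, the 5 with the next highest signals at a start (E2f1, Orc1, Cdk1, aurA and BubR1), the 10 other genes of highest signal, and the rest by role. Alternatives were the upper 50% of optimal peaks, start windows of 200 bp or 1000 bp, each replicate list alone, interval overlap, RefSeq starts and motif windows of 50 bp. Only the calling of summits at starts, with their offsets, was tested on simulated summits placed at known positions. Tables were handled in pandas 2.3.3 and NumPy 2.4.6 under Python 3.11.15, and plots were drawn with matplotlib 3.10.9.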

Additional observations from a re-analysis of the deposited data

How the results depend on the processing

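The count of 6 genes with an optimal start summit was 4 with a window of 200 bp (losing Dp and grp), beside 9.06% of all genes, and 8 with 1000 bp (adding CycE and Cdk4), beside 15.6%. It was 8 by any overlap of the peak and 6 with RefSeq starts, both without a share over all genes to set beside them. With the upper 50% of optimal peaks it was 3 (Dp, dup and mei-41), beside 7.28% of all genes. From 1 replicate list alone it ranged from 6 to 8: without replicate 2, mei-41 was lost and E2f1 gained, and without replicate 3, Mcm2 and SMC2 were lost and CycB3, fzr, aurA and Orc1 gained. The median offset of -187 bp was -230 bp with the window of 1000 bp. Of the 151 other genes, 10 in place of 21 had an optimal summit within 200 bp (6.62%, beside 9.06% of all genes), so the set lay below the genome there. With 50 bp on either side of the 14 summits, the E2F words were in 0 windows, CHR in 0, GAGA in 1, TATA in 2 and ACAGTG in 1. The smaller windows cover less sequence, and otherwise the cause was not tested. Genes with an optimal summit elsewhere in the gene numbered 3 to 5 under the alternatives, beside 3.13% to 6.8% of all genes. Genes with a candidate at a start numbered 26 to 34, beside 39.3% to 55.4% of all genes. No paired analysis was possible because there is only 1 group. The number of replicates and the unknown depth limit every signal value, and a start with no candidate may hold binding below what these lists record.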
